A study of Mus musculus with 6 samples.

Results

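The 49 genes described here are interferon response genes and genes of MHC class I antigen presentation, chosen by name for their known roles among the 47593 gene rows of the RNA-seq table, and all 49 were found. By role they are 6 transcription factors, 4 RNA sensors, 19 antiviral effectors, 6 genes of ubiquitin-like and ADP-ribose modification, 4 interferon-induced transmembrane proteins and 10 genes of MHC class I and antigen processing. The cells were mouse femur bone marrow cells selected for c-Kit, a receptor found on early blood cells. They had been infected with the retrovirus MSCVneo carrying MLL-AF9, a leukaemia fusion of the histone methyltransferase MLL with AF9, then put through G418 selection and repeated rounds of growth in methylcellulose with cytokines. All 6 libraries carry the fusion: 3 have its unchanged form (WT) and 3 have the E531R substitution in AF9 (E531R), which the series links to lost binding of the corepressor BCOR. There was no sample without the fusion, and the labels give no strain, sex or age. Whether the replicates came from different animals or cultures is not in the labels, so p-values measure the spread between these libraries, which may be technical.

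Type I interferons are secreted when a cell senses foreign nucleic acid. Type I interferons bind the IFNAR receptor, whose kinases JAK1 and TYK2 activate STAT2-containing complexes with IRF9, and these bind interferon-stimulated response elements in front of antiviral genes. Type II interferon acts through the IFNGR receptor and gamma-activated sites. MHC class I molecules display peptides at the cell surface: the proteasome cuts proteins, the TAP transporter carries peptides into the endoplasmic reticulum, tapasin helps to load them, and a heavy chain leaves with beta-2 microglobulin and its peptide. Interferon raises most of these genes, and it swaps the proteasome's standard catalytic subunits for the immunoproteasome subunits encoded by Psmb8, Psmb9 and Psmb10.

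The libraries held between 14161139 and 33459668 reads assigned to genes. Kit, which encodes c-Kit, lay between 3332 and 3702 normalised reads, and Ptprc, the common leukocyte antigen, between 3080 and 6721. WT replicate 3 stood apart: in 61.3% of all tested genes and in 22 of 39 tested members it lay more than 0.25 on the log2 scale from the mean of the other WT libraries, compared with 3 to 5 of 39 members for each E531R library. Markers of more mature myeloid cells moved with the comparison. The summed level of 8 neutrophil markers was 6096 to 8341 in WT and 66021 to 73410 in E531R, and 7 of the 8 rose while Retnlg was too low to test. The sum of 11 monocyte and macrophage markers was 22496 to 30442 in WT and 34276 to 38085 in E531R. Of the 11, 7 rose, and the complement genes C1qa, C1qb and C1qc were at or near 0. Ly6c2, which made up most of the sum, averaged 22715 in WT and 22415 in E531R and did not pass (limma adjusted p = 0.979). The part of these myeloid markers in the results below was not tested, and in bulk RNA fewer cells of a type and less RNA per cell cannot be told apart. Among markers of other cells, Nkg7 of T and NK cells fell from 677 ± 85.7 to 276 ± 14.3 and Flt3, listed for conventional dendritic cells, from 42.6 ± 3.11 to 5.98 ± 1.00 (SD, n = 3 each; limma adjusted p = 0.000292 and 0.000246). Itgax, of the dendritic cell list too, rose from 4.84 ± 2.63 to 74.3 ± 9.76 and Cd300c, of plasmacytoid dendritic cells, from 6.17 to 23.2 on average (limma adjusted p = 0.000326 and 0.0174). Itgax and Cd300c reached the mean of 10 needed for testing only through the E531R libraries, and Flt3 only through the WT libraries. The markers Cd3e, Cd2, Ncr1 and Klrb1c of T and NK cells and Ms4a1 of B cells were at 0 in all libraries. Summed levels in WT and E531R were 12.8 to 16.5 and 28.5 to 42.8 for plasmacytoid dendritic cells, 44.8 to 53.5 and 72.0 to 92.5 for conventional dendritic cells, 619 to 775 and 260 to 286 for T and NK cells, and 382 to 550 and 486 to 600 for B cells. The part of these markers was not tested either.

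In E531R cells 5 of the genes that make or transport MHC class I peptides were lower: Psmb8, Psmb9, Psmb10, Tap1 and Tap2 fell by 1.41-fold to 1.71-fold. WT replicate 3 was the highest library for each of these genes. With other processing or a library left out, the smallest falls were log2 fold changes of -0.60, -0.50, -0.47, -0.63 and -0.39 in that order. B2m, the invariant chain of MHC class I, rose 1.53-fold. Ifitm6 rose from single-digit values to above 80 normalised reads, and Ifit2, Isg20 and Ddx58 rose between 1.41-fold and 1.95-fold. The calls of Ifit2, Isg20, Ddx58, Psmb9 and Psmb10 were lost when any single E531R library was left out. The classical inducible genes Isg15, Mx1, Mx2, Ifit1, Rsad2 and Usp18 stayed at or below 11.2 normalised reads in every library.

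A normalised read count is a gene's read count divided by the library's size factor, and 39 of the 49 members reached the mean of 10 over the 6 libraries that was needed for testing. Of these 39, 5 were higher and 5 lower in E531R at a limma adjusted p under 0.05, which is 12.8% in each direction. Over all 12991 tested genes 10.4% were higher and 9.53% lower, so the members' shares lie near the background. The same background stands beside each count by role below. Groups did not overlap, with all 3 values of one above the other's, in 16 of 39 members, or 41.0%, beside 44.0% of all tested genes. The median log2 fold change was -0.05 over the 39 tested members and 0.01 over all tested genes. The authors' deposited table calls 5 members higher and 5 lower, and all 10 are the members called here.

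**Figure D1:**
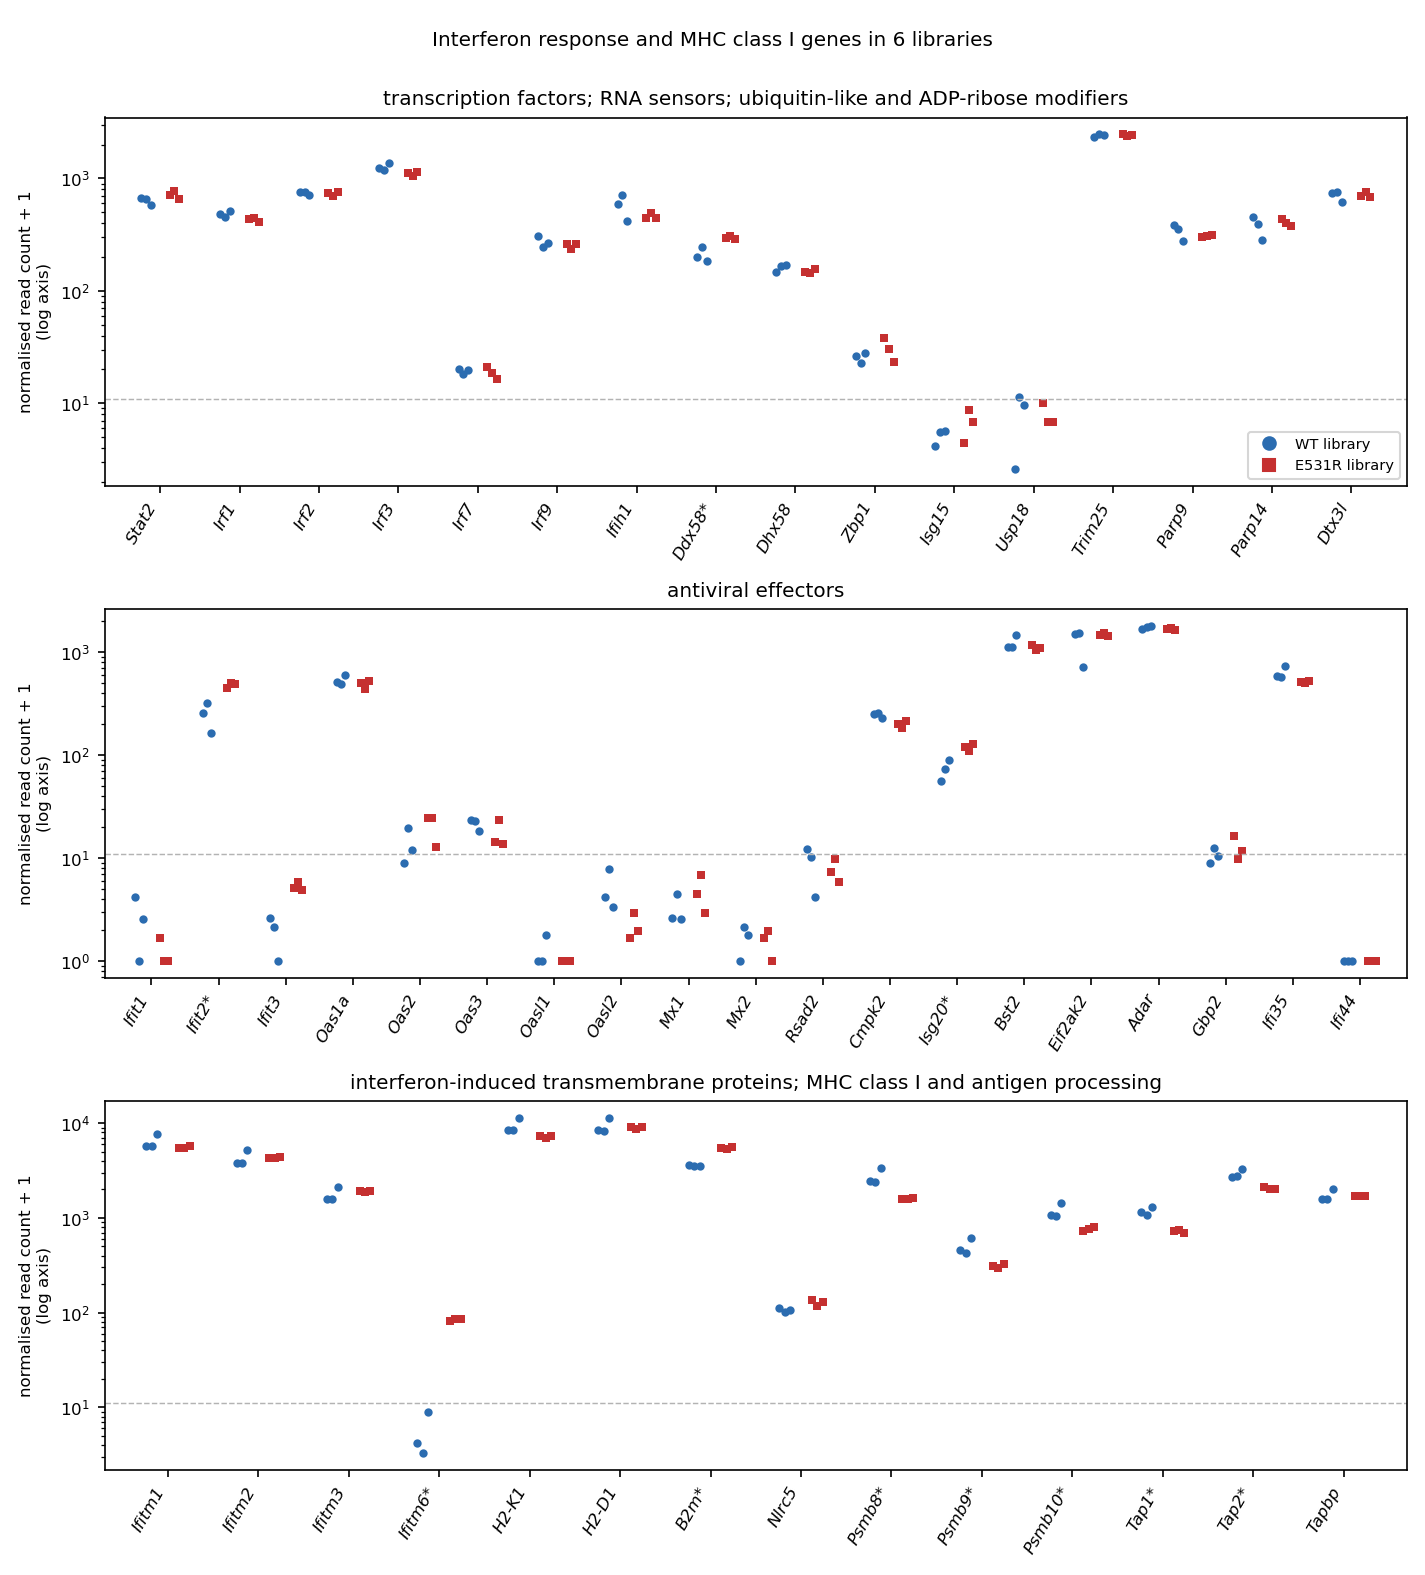
Normalised read count plus 1, on a log y axis, of the 49 members in 3 panels by role, with 1 blue circle per WT library and 1 red square per E531R library; asterisks mark the 10 called members and the dashed line a count of 10. The E531R squares of Psmb8, Psmb9, Psmb10, Tap1 and Tap2 lie below all WT circles, and Ifitm6 crosses the dashed line between the groups.

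The immunoproteasome genes fell together. Psmb8, the chymotrypsin-like subunit, had 2469, 2379 and 3364 normalised reads in WT replicates 1, 2 and 3 and 1600, 1588 and 1606 in E531R. Every E531R value lay below every WT value, and WT replicate 3 was the highest library. The log2 fold change was -0.76 with SE 0.13 (adjusted p = 0.00774 by limma). Psmb9, the caspase-like position's replacement, had 460, 424 and 613 in WT and 313, 298 and 324 in E531R (limma: log2 fold change -0.66 with SE 0.15, adjusted p = 0.0196). Psmb10, the trypsin-like position's replacement, had 1078, 1039 and 1432 in WT and 736, 755 and 807 in E531R (limma: log2 fold change -0.61 with SE 0.13, adjusted p = 0.0176). In both genes the groups did not overlap. When E531R replicate 1, 2 or 3 was left out, Psmb9 no longer passed (limma adjusted p = 0.0785, 0.0875 and 0.0677), nor did Psmb10 (0.0817, 0.0769 and 0.0579).

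The transporter genes fell as well, while their partner did not pass. Tap1, one chain of the peptide transporter, had 1149, 1076 and 1306 in WT and 727, 739 and 695 in E531R. The groups were well apart, with a log2 fold change of -0.70 with SE 0.091 (adjusted p = 0.00185 by limma). Tap2, the other chain, had 2725, 2753 and 3261 in WT and 2134, 2033 and 2031 in E531R (limma: log2 fold change -0.49 with SE 0.088, adjusted p = 0.00819). Tapbp, which encodes tapasin and bridges TAP to the heavy chain, had 1588, 1568 and 2007 in WT and 1724, 1686 and 1689 in E531R, so the groups overlapped (limma: log2 fold change -0.01, adjusted p = 0.965). Without WT replicate 3 Tapbp turned to 0.11 and passed (limma adjusted p = 0.047).

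Psmb9, Tap1, Psmb8 and Tap2 lie side by side within 34.3 kb of chromosome 17 (34181987 to 34216321, GRCm38), inside the MHC. Psmb10 lies elsewhere, on chromosome 8 (105935735 to 105938444). Annotated exons overlap in the cluster: 5.79% of the exon bases of Psmb9 are shared with Tap1, 14.7% of those of Psmb8 with Gm20496 and 14.1% of those of Tap2 with Gm15821, each on the opposite strand. How the counting treated strand is not stated, so reads in these stretches could belong to either gene.

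The surface components went different ways. B2m, on chromosome 2 (122147686 to 122153083), had 3595, 3532 and 3566 in WT and 5462, 5299 and 5592 in E531R. All E531R libraries were above all WT libraries with little spread within either group, and the log2 fold change was 0.61 with SE 0.060 (adjusted p = 0.000511 by limma). The heavy chain gene H2-K1 had 8390, 8580 and 11243 in WT and 7351, 6996 and 7269 in E531R, which did not overlap but did not pass (limma: log2 fold change -0.37, adjusted p = 0.0768). Without WT replicate 3 H2-K1 passed, at a smaller log2 fold change of -0.24 (limma adjusted p = 5.32e-05). The other heavy chain gene, H2-D1, had 8508, 8298 and 11332 in WT and 9034, 8756 and 9214 in E531R (limma: log2 fold change -0.04, adjusted p = 0.827). Without WT replicate 3 its log2 fold change turned to 0.10 (limma adjusted p = 0.0357). Nlrc5, the transactivator of MHC class I genes, had 106 ± 5.94 in the WT libraries against 127 ± 8.56 in the E531R libraries (SD, n = 3 each), with a limma log2 difference of 0.25 and adjusted p = 0.176. H2-K1 and H2-D1 are close relatives of each other and of the H2-Q genes, so reads could be split between them.

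Of the 10 genes of MHC class I and antigen processing, 5 were lower, 1 was higher and 4 did not pass, with a median log2 fold change of -0.43. Over all tested genes 9.53% were lower and 10.4% higher, and the members were chosen with earlier results of these data known. Per kilobase of exon, where levels of genes can be compared, B2m was highest with a mean of 5241 normalised reads over the 6 libraries. H2-D1 followed with 3564 and H2-K1 with 2827, and Nlrc5 was lowest with 13.7.

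**Figure D2:**
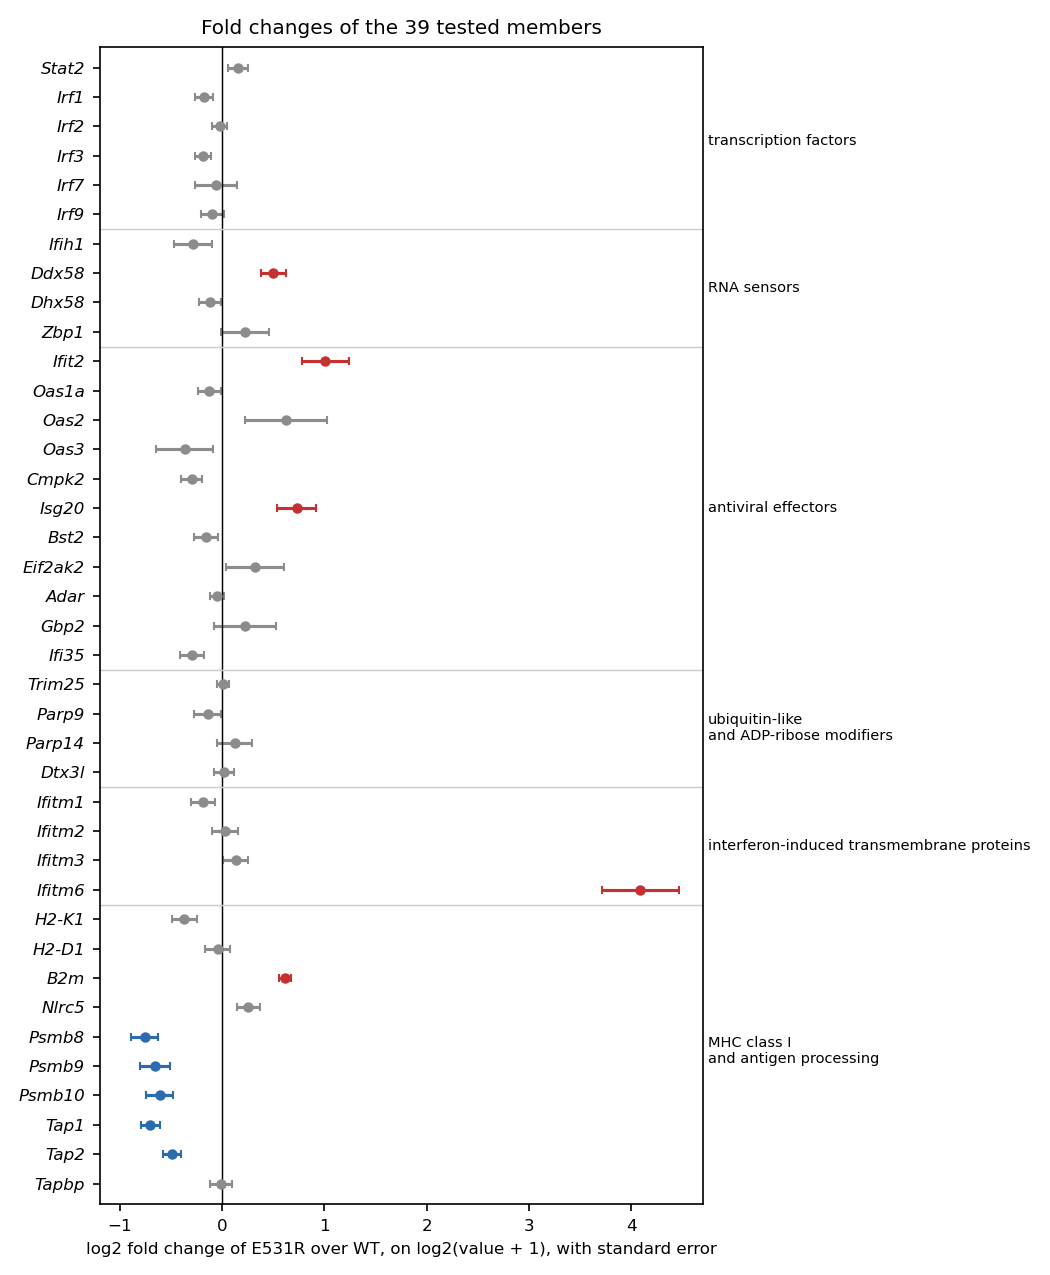
Log2 difference, E531R minus WT, in log2(value + 1) of the 39 tested members in rows grouped by role, with bars of 1 standard error; red points passed the test toward higher, blue points toward lower values and grey points did not pass. The 5 blue points all belong to MHC class I and antigen processing, and Ifitm6 lies at 4.09.

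Ratios of genes within a library do not depend on the library's scaling, and 7 were formed after the values were seen. Psmb8 against Psmb5, the standard subunit whose place it takes, had ratios of 0.587, 0.566 and 0.558 in WT and 0.343, 0.350 and 0.332 in E531R. WT replicate 3 fell in with the other WT libraries in this ratio, though it stood apart in both genes. The ratio of Psmb9 to Psmb6 was 0.147 ± 0.00581 in the WT libraries against 0.104 ± 0.0019 in the E531R libraries (SD, n = 3 each), and that of Psmb10 to Psmb7 was 0.299 ± 0.0134 and 0.217 ± 0.0044. On the log2 scale the 3 ratios differed by -0.74, -0.50 and -0.46, and without WT replicate 3 by -0.75, -0.50 and -0.43. Psmb5, Psmb6 and Psmb7 themselves had log2 fold changes of -0.02, -0.16 and -0.15, and none passed (limma adjusted p = 0.94, 0.454 and 0.407). Psmb5 without WT replicate 3 turned to 0.15 and passed (limma adjusted p = 0.00337).

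The ratio of Tap1 to Tapbp was 0.724, 0.686 and 0.651 in WT and 0.422, 0.438 and 0.412 in E531R. B2m against H2-K1 moved the other way, from 0.428, 0.412 and 0.317 in WT to 0.743, 0.757 and 0.769 in E531R. B2m against H2-D1 was 0.423, 0.426 and 0.315 in WT and 0.605, 0.605 and 0.607 in E531R, and H2-K1 against H2-D1 fell from 1.00 ± 0.0260 to 0.801 ± 0.0125 (SD, n = 3 each). For B2m, WT replicate 3 was the lowest library in both ratios. In all 7 ratios the groups did not overlap, with an exact two-sided permutation p of 0.1 (0.1 after Benjamini-Hochberg adjustment over the 7), the smallest that 3 against 3 libraries allow. The first gene of every ratio was already without overlap on its own, so the separation of the ratios is no further support. Of all tested genes taken singly 44.0% did not overlap, and no such share was computed for gene pairs.

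**Figure D3:**
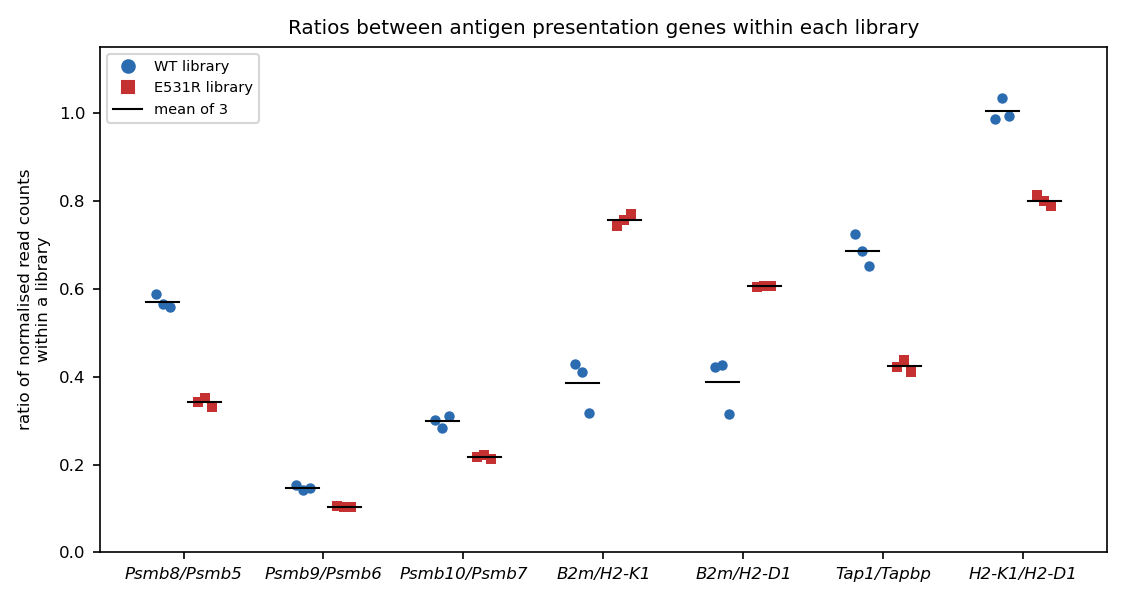
Ratio of the normalised read counts of 2 genes within each library, on a linear y axis from 0, for 7 gene pairs on the x axis; blue circles are WT libraries, red squares E531R libraries and black bars means of 3. The E531R squares lie below the WT circles for the 3 proteasome pairs, for Tap1/Tapbp and for H2-K1/H2-D1, and above them for both B2m pairs.

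RefSeq promoter windows on GRCm38.p6, from 250 bases before to 50 bases after a gene's start, were found for 39 of the 49 members. The core of the interferon-stimulated response element, GAAA then any 2 bases then GAAA on either strand, was present in a window of 16 of these 39 members (41.0%) and of 3.99% of 27025 genes with a window. The gamma-activated site TTCNNNGAA, which reads alike on both strands, was present in 12 of 39 (30.8%) and in 9.55% of all genes. Overlapping matches were each counted. The members were picked as interferon genes, so their higher shares describe the choice. The windows below are a selection of members. Tap1, Psmb8 and Psmb10 fell together, B2m and Ddx58 rose, and Isg15 was barely detected. The window of Tap1 shares 275 bases with that of its divergent neighbour Psmb9. Windows of the other risen members, Ifitm6, Ifit2 and Isg20, held no response element core and are not shown. Capitals mark matches to either motif.
Tap1, chr17:34187306-34187605, plus strand: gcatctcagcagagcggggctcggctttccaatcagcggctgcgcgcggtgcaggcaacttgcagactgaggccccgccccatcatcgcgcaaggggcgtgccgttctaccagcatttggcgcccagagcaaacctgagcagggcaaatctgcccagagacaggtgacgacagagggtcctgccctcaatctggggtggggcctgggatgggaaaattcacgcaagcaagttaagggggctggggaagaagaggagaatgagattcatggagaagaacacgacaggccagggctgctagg
Psmb8, chr17:34197945-34198244, plus strand: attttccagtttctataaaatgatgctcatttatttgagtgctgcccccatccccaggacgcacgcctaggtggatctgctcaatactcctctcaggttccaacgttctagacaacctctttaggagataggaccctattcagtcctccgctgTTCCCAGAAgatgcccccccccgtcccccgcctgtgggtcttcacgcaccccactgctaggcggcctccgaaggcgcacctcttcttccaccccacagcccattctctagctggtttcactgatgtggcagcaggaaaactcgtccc
Psmb10, chr8:105938343-105938642, minus strand: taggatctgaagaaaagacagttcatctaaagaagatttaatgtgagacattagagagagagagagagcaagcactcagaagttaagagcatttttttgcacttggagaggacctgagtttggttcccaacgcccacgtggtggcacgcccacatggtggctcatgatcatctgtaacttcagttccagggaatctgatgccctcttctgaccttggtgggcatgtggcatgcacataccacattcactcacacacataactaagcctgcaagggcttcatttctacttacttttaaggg
B2m, chr2:122147437-122147736, plus strand: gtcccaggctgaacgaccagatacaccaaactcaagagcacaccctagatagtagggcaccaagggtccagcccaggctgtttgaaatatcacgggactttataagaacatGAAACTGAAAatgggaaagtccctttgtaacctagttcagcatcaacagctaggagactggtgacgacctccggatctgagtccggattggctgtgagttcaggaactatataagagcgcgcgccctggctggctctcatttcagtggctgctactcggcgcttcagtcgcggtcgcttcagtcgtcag
Ddx58, chr4:40239776-40240075, minus strand: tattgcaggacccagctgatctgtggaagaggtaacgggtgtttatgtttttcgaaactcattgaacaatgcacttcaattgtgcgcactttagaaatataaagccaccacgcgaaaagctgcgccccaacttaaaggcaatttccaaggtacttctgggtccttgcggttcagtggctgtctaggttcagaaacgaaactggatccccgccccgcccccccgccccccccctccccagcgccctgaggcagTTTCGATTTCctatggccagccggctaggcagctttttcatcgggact
Isg15, chr4:156200769-156201068, minus strand: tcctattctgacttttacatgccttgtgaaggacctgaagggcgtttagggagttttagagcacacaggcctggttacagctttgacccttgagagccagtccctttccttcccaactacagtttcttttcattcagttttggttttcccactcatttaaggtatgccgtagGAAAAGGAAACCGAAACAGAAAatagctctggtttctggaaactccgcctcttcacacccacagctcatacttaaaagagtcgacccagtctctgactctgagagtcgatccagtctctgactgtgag

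The windows of Tap1, Psmb9 and Psmb10 held neither motif, and that of Psmb8 held 1 gamma-activated site. Those of B2m and Ddx58 held 1 response element core each, while that of Isg15 held 3 overlapping cores. By outcome, counting members with a window, the response element core was found for 2 of 5 that rose and 0 of 4 that fell. It was found for 10 of 23 that did not pass and 4 of 7 too low to test. The gamma-activated site was found for 3 of 5 that rose and 1 of 4 that fell. Its other matches were in 8 of 23 that did not pass and 0 of 7 too low to test. Some members, such as Isg20 and Ifit2, have several windows, and a match in any of them counted. A match is a stretch of letters and no evidence of binding.

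Among the interferon-induced transmembrane proteins, which block virus entry at cell membranes, 1 of 4 rose. Ifitm6, on chromosome 7 (141015699 to 141017924), had 3.19, 2.30 and 7.87 normalised reads in WT and 80.6, 84.7 and 85.7 in E531R. It was near the detection limit in every WT library and of moderate level in every E531R library, an 18.8-fold difference of the means. The log2 fold change was 4.09 with SE 0.38 (adjusted p = 0.000387 by limma) and 2.71 with a pseudocount of 10. Ifitm6 reached the minimum mean for testing only through the E531R libraries. Its neighbours on the same chromosome did not follow: Ifitm1 had 5809, 5713 and 7621 in WT and 5427, 5448 and 5777 in E531R (limma: log2 fold change -0.19, adjusted p = 0.327). Ifitm2 and Ifitm3 had log2 fold changes of 0.03 and 0.13 (adjusted p by limma = 0.888 and 0.49), and without WT replicate 3 both passed, at 0.18 and 0.27. With upper-quartile scaling Ifitm2 was at -0.01. Ifitm2 was the highest member per kilobase of exon, with 6589 normalised reads, and 40.9% of its exon bases are shared with Gm45717 on the same strand.

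None of the 6 transcription factors passed, with log2 fold changes between -0.18 and 0.16. With limma 0 had an unadjusted p under 0.05, and the authors' deposited table calls 0 of them. Stat2, a carrier of the type I signal, had 672, 657 and 581 in WT and 709, 771 and 653 in E531R, which overlapped (limma: log2 fold change 0.16, adjusted p = 0.313). Irf1, an activator of MHC class I and immunoproteasome genes, had 479, 453 and 515 in WT and 432, 440 and 408 in E531R (limma: log2 fold change -0.18, adjusted p = 0.205). Irf3, which switches on interferon genes after virus sensing, had 1226, 1186 and 1359 in WT and 1113, 1058 and 1142 in E531R (limma: log2 fold change -0.18, adjusted p = 0.162). The E531R values of Irf1 and Irf3 were all below the WT values, by less than the test required. Without WT replicate 3 Irf3 passed, at -0.13 (limma adjusted p = 0.0476). Irf7, the inducible amplifier of type I interferon, was low in all libraries, between 15.6 and 20.2. Irf3 was the highest of the 6 per kilobase, with 343 normalised reads, and Irf7 the lowest, with 4.79.

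Of the RNA sensors, Ddx58 was higher and 3 did not pass. Ddx58, which encodes the cytosolic RNA sensor RIG-I, had 200, 242 and 185 in WT and 292, 305 and 286 in E531R. The groups did not overlap, and the log2 fold change was 0.50 with SE 0.12 (adjusted p = 0.0284 by limma). The call was lost without WT replicate 1 (limma adjusted p = 0.0905) or E531R replicate 1, 2 or 3 (0.109, 0.123 and 0.0931). Ifih1, the gene of the related sensor MDA5, had 595, 705 and 420 in WT and 443, 492 and 445 in E531R (limma: log2 fold change -0.29, adjusted p = 0.335). WT replicate 3 was its lowest library, and without it Ifih1 was lower in E531R, at -0.49 (limma adjusted p = 6.9e-05). Dhx58, a regulator of both sensors, and Zbp1, a sensor of Z-form nucleic acid, had log2 fold changes of -0.12 and 0.22 (adjusted p by limma = 0.483 and 0.546).

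Of the 19 antiviral effectors 11 could be tested, and 2 of them rose. Ifit2, which binds foreign RNA, had 252, 317 and 163 in WT and 445, 497 and 485 in E531R. All E531R libraries exceeded all WT libraries, and WT replicate 3 was the lowest (limma: log2 fold change 1.01 with SE 0.23, adjusted p = 0.0223). Isg20, an exonuclease, had 54.3, 72.3 and 87.4 in WT and 118, 107 and 126 in E531R (limma: log2 fold change 0.73 with SE 0.19, adjusted p = 0.0391). The Ifit2 call was lost without WT replicate 1 (limma adjusted p = 0.0558) or E531R replicate 1, 2 or 3 (0.0705, 0.0904 and 0.0898). The Isg20 call was lost in those fits (0.0761, 0.137, 0.0957 and 0.145), without WT replicate 2 (0.0782), with no filter on low genes (0.0516) and with upper-quartile scaling (0.0546).

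The other 9 tested effectors had log2 fold changes between -0.37 and 0.62. Cmpk2, a mitochondrial nucleotide kinase, had 251, 251 and 228 in WT and 198, 181 and 214 in E531R, without overlap (limma: log2 fold change -0.30, adjusted p = 0.097). Ifi35, an interferon-induced leucine zipper protein, had 626 ± 91.0 in the WT libraries against 506 ± 11.7 in the E531R libraries (SD, n = 3 each), with a limma log2 difference of -0.30 and adjusted p = 0.122. Without WT replicate 3 both passed toward lower values, at -0.35 and -0.18. Oas2, one of the enzymes that make 2-5A to activate RNase L, had 7.98 to 18.4 in WT and 11.7 to 23.6 in E531R, a wide and overlapping spread (limma: log2 fold change 0.62, adjusted p = 0.334). With array weights Oas2 passed, at 1.03 (limma adjusted p = 0.0142). Eif2ak2, the kinase PKR that stops translation upon binding double-stranded RNA, had 1502, 1536 and 715 in WT and 1467, 1533 and 1438 in E531R. The positive log2 fold change of 0.32 (limma adjusted p = 0.474) rested on the low WT replicate 3, and without that library Eif2ak2 was at -0.039 (limma adjusted p = 0.515). Adar, the editor of double-stranded RNA, had 1646 to 1772 in WT and 1633 to 1699 in E531R. Bst2, the tether that holds budding virus, was the highest effector per kilobase, with 1292 normalised reads, and had a log2 fold change of -0.16 (limma adjusted p = 0.415).

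The remaining 8 effectors, and Isg15 and Usp18 among the modifiers, lay under the minimum mean, with values between 0 and 11.2. Isg15, the ubiquitin-like protein that interferon raises most strongly in many cells, had 12 reads in WT and 19 in E531R, summed over libraries. Mx1 and Mx2, the virus-trapping GTPases, had 6 and 13 and 2 and 2 reads in WT and E531R, and Rsad2, which encodes viperin, had 19 and 23. Ifit1 had 4 reads in WT and 1 in E531R, Oasl1 had 1 and 0, and Oasl2 had 11 and 4. Ifit3 had 1, 1 and 0 reads in WT and 6, 5 and 4 in E531R, and Ifit3 also has a near-identical neighbour, Ifit3b. The authors' deposited table gives Ifit3 and Oasl2 adjusted p-values of 0.293 and 0.421. Ifi44 had 0 reads in all 6 libraries, which allows up to 0.0206 CPM at a floor of 3 reads in 145901736, counting error only. Usp18, which removes ISG15 and dampens IFNAR signalling, had 21 and 25 reads. These low genes stood beside well expressed ones such as Oas1a, with 530 ± 56.6 in the WT libraries against 485 ± 44.4 in the E531R libraries (SD, n = 3 each).

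None of the 4 tested modifiers passed, with log2 fold changes between -0.14 and 0.12, and 0 had an unadjusted p under 0.05 in limma or a call in the authors' deposited table. Trim25, the ubiquitin ligase that activates RIG-I, was the highest of them per kilobase, with 421 normalised reads. It had 2331, 2468 and 2452 in WT and 2471, 2396 and 2417 in E531R (limma: log2 fold change 0.01, adjusted p = 0.949). Parp9 and Parp14, ADP-ribosyltransferases, and Dtx3l, the ubiquitin ligase partner of PARP9, had log2 fold changes of -0.14, 0.12 and 0.02 (adjusted p by limma = 0.498, 0.656 and 0.909). Parp9 was at 388, 357 and 279 in WT and 299, 305 and 314 in E531R, and without WT replicate 3 it passed toward lower values, at -0.28 (limma adjusted p = 0.00801).

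The rest of the pathway was followed with a list of 110 further genes, of which 79 could be tested, 17 were higher and 13 lower. These are 21.5% and 16.5% of those tested, beside 10.4% and 9.53% of all tested genes, the background also for the counts by role that follow. The list was chosen with earlier results of these data known, so its higher shares may reflect the choice. Leaving out any single E531R library left 9 of the list higher and 8 lower, beside 819 to 842 and 746 to 789 of all 12991 tested genes. Leaving out WT replicate 3 gave 25 and 23, beside 24.3% and 23.1% of all tested genes. The median log2 fold change was -0.06. Of the 10 interferon ligand genes, Ifnb1, Ifna1, Ifna2, Ifna4, Ifnab, Ifng, Ifnk, Ifne, Ifnl2 and Ifnl3, none could be tested, and none had more than 1 read in either group.

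Of 7 tested genes of receptors and their kinases, 3 fell and 1 rose. Ifngr1, the ligand-binding chain of the type II receptor, had 7217, 7257 and 7128 in WT and 4504, 4558 and 4688 in E531R. Replicates of each group lay close together, and the log2 fold change was -0.65 with SE 0.059 (adjusted p = 0.000368 by limma). Il10rb, a chain shared by the type III interferon and interleukin-10 receptors, fell from 1404 ± 58.0 to 947 ± 25.9 (SD, n = 3 each; limma adjusted p = 0.00137). Ifnar1, a chain of the type I receptor, had 2137, 2083 and 2175 in WT and 1739, 1780 and 1826 in E531R (limma: log2 fold change -0.26, adjusted p = 0.0268). The Ifnar1 call was lost in a DESeq2 fit of recovered reads (adjusted p = 0.088), with the replicate number as a block (limma adjusted p = 0.0793), with no filter (limma adjusted p = 0.0548) and without any library but WT replicate 3 (limma adjusted p = 0.0559 to 0.152). The authors' deposited table gives Ifnar1 an adjusted p of 0.0833. Jak1, the kinase common to these receptors, rose from 4734 ± 105 to 5825 ± 85.2 (SD, n = 3 each), with a limma log2 difference of 0.30 and adjusted p = 0.0129, and its call was lost without E531R replicate 1, 2 or 3 (limma adjusted p = 0.089, 0.0843 and 0.0606). Ifnar2, Ifngr2 and Tyk2 did not pass, at -0.21, 0.11 and 0.10, and without WT replicate 3 all 3 passed, at -0.15, 0.18 and 0.24 (limma adjusted p = 0.00891, 0.0145 and 0.000129).

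Of 9 tested genes of nucleic acid sensing 3 rose and 1 fell. Ikbke, a kinase that activates IRF3, had 830, 843 and 830 in WT and 1545, 1660 and 1518 in E531R, a tight group and a clear gap (limma: log2 fold change 0.91 with SE 0.068, adjusted p = 0.000151). Tmem173, which encodes STING, the adaptor for cytosolic DNA, had 2656, 2396 and 3237 in WT and 1624, 1587 and 1606 in E531R (limma: log2 fold change -0.77 with SE 0.11, adjusted p = 0.00335). Traf3, an adaptor on the way to interferon genes, and Samhd1, a nucleotide hydrolase, rose by 0.29 and 0.26 on the log2 scale (limma adjusted p = 0.0188 and 0.0218). With the replicate number as a block neither passed (limma adjusted p = 0.0627 and 0.0753). Both calls were also lost with upper-quartile scaling (limma adjusted p = 0.050 and 0.0637) and without any library but WT replicate 3 (0.0548 to 0.115 for Traf3 and 0.0666 to 0.125 for Samhd1). Samhd1 also missed the threshold by DESeq2 on recovered reads (adjusted p = 0.0779) and in the authors' deposited table (adjusted p = 0.0735). Trex1 is listed at 0 in every library, and all of its exon bases are shared with Atrip on the same strand.

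Of 43 tested other interferon-stimulated genes 9 rose and 8 fell. Slfn2, a growth regulator of the Schlafen family, had 516, 512 and 638 in WT and 1675, 1717 and 1779 in E531R, a 3.10-fold difference of the means (limma adjusted p = 7.1e-05). Epsti1 rose from 25.5 ± 5.38 to 76.7 ± 3.26 and Lgals3bp, a secreted glycoprotein, from 859 ± 65.6 to 1396 ± 77.7 (SD, n = 3 each; limma adjusted p = 0.00155 and 0.0015). Oas1g, a relative of Oas1a, had 121, 132 and 146 in WT and 55.6, 48.7 and 38.9 in E531R, 2.79-fold lower (limma adjusted p = 0.00108). The near relatives Oas1a and Oas1g thus had log2 fold changes of -0.13 and -1.47, though counting could split reads between them. Ly6e, the highest of the list per kilobase, rose from 5424 ± 837 to 7108 ± 121 (SD, n = 3 each), with a limma log2 difference of 0.40 and adjusted p = 0.0486, and the call was lost in 10 alternatives, among them leaving out any library but WT replicate 3 and the replicate block (limma adjusted p = 0.0525 to 0.169).

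Among 10 tested further MHC class I genes, 4 rose and 1 fell. Fcgrt, the heavy chain of the neonatal Fc receptor, which pairs with B2m, had 104, 130 and 168 in WT and 548, 583 and 591 in E531R, 4.28-fold higher (limma: log2 fold change 2.12 with SE 0.17, adjusted p = 0.000236). The non-classical genes H2-Q7 and H2-Q6 had 5.89 ± 3.15 and 1.94 ± 1.76 in the WT libraries against 46.4 ± 9.75 and 23.7 ± 5.0 in the E531R libraries (SD, n = 3 each; limma adjusted p = 0.00174 and 0.00768). Both reached the minimum mean only through E531R, and as near copies they may share reads. Cd1d1, which presents lipids to NKT cells, fell from 569 ± 20.7 to 269 ± 11.7 (SD, n = 3 each), with a limma log2 difference of -1.08 and adjusted p = 0.000157. H2-T23, the highest of these genes per kilobase, did not pass (limma: log2 fold change -0.16, adjusted p = 0.27). Of the 10 genes of peptide loading and the proteasome, which include the chaperone gene Calr (limma: log2 fold change -0.18, adjusted p = 0.234), 0 passed with limma in either direction, and 2 of them, Tapbpl and Psme1, had an unadjusted p under 0.05. The authors' deposited table also calls 0 of these 10. When WT replicate 3 was left out, 5 of the 10 passed: Calr (-0.11), Psme1 (-0.17), Erap1 (-0.44), Tapbpl (0.39) and Psmb5 (0.15), with limma adjusted p = 0.0494, 0.00739, 5.43e-07, 1.58e-06 and 0.00337. In that fit 24.3% of all tested genes were higher and 23.1% lower, so this count lies near the background.

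**Figure D4:**
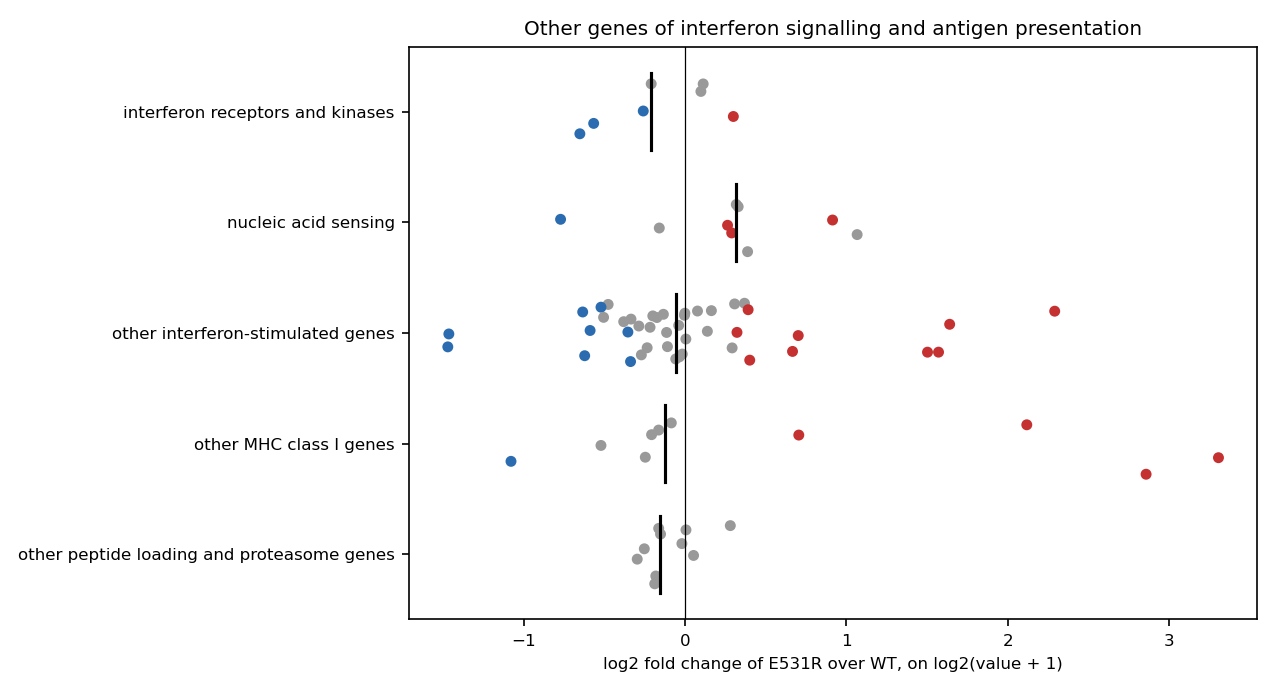
Log2 difference, E531R minus WT, in log2(value + 1) of the 79 tested genes of the further list on the x axis, in rows by role with random vertical spread; red and blue points passed the test toward higher and lower values, grey points did neither, and each median is a black bar. The row of peptide loading and proteasome genes holds grey points only, while other MHC class I genes reach from -1.08 to 3.31.

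Leaving out WT replicate 3 changed the number of member calls more than leaving out any other library. Without it 9 members were higher and 11 lower, beside 24.3% and 23.1% of all tested genes, and all 10 called members remained among them. The members added were Ifitm2, Ifitm3, H2-D1 and Tapbp toward higher values and Irf3, Ifih1, Cmpk2, Ifi35, Parp9 and H2-K1 toward lower values. Without any single E531R library 819 to 842 of all 12991 tested genes were higher and 746 to 789 lower. Among the members 2 were higher and 3 lower in each of these fits: Ifitm6 and B2m, and Psmb8, Tap1 and Tap2. These 5 members kept their calls in all alternatives that tested them.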

How the data were processed

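RNA-seq gene values of 6 libraries, 3 WT and 3 E531R by the titles in the labels, were analysed. The submitters' processing notes name HISAT2, featureCounts, DESeq2, FastQC, SAMtools and cutadapt and build GRCm38, without versions. The annotation and strand handling were not given. The deposited values (unit: signal) are read counts divided by 1 size factor per library. Multiplied by 1 constant per library, all of them (100%) lay within 0.001 of a whole number, which gave back the reads. The deposited table also gives a DESeq2 log2 fold change, its Wald score and a p-value adjusted by the authors, per the file headers; the sign was turned to E531R over WT.

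The main test was limma 3.58.1 (R 4.3.3) on log2(value + 1) with a mean-variance trend, two-sided, for the 12991 genes whose mean reached 10, Benjamini-Hochberg adjusted over all of them at 0.05; 4245 genes had an unadjusted p under 0.05. The log2(value + 1) scale understates changes of low genes. Tested on simulated data with the E531R and WT libraries (12991 genes), the fit found 38% of changes of 1.5-fold and 60% of those of 2-fold. At 4-fold it found 94%, at 8-fold 98%. The simulation changed 200 genes, far fewer than were called in the data, and 9 unchanged genes were called. Its libraries were drawn independently, without a shift like that of WT replicate 3, so these rates may not hold for the data. The count test on recovered reads, edgeR 4.0.16, called 1393 genes higher and 1251 lower. Alternatives were pseudocounts 0.5 and 10, filters, TMM and upper-quartile scaling, edgeR, DESeq2 1.42.0, voom, the authors' table, the replicate block, array weights and leaving out each library. Ratios were tested with scipy 1.17.1. Exon lengths and positions come from GENCODE M21 and promoters from RefSeq. Members and lists were chosen with earlier results of these data known. Named genes are all called members, in each role the highest member per kilobase and up to 3 of those not past the threshold, by adjusted p, and up to 4 called genes and the highest per role of the further list; others named were chosen after their values were seen. Replicate pairs differed by more than counting noise.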

Additional observations from a re-analysis of the deposited data

How the results depend on the processing

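Counts of called genes changed by over 1.5 times in 2 kinds of alternative. With limma array weights, whose estimation stopped before converging, 3432 genes were higher and 3266 lower, with 9 and 11 members and 26 and 28 genes of the further list. Leaving out 1 library gave 819 to 3159 genes higher and 746 to 2999 lower, 2 to 9 members higher and 3 to 11 lower, and 9 to 25 further genes higher and 8 to 23 lower; the largest counts came without WT replicate 3. Signs turned in 9 of the 39 tested members and in Psmb5, none of which passed over all libraries. With array weights Parp14, Dtx3l, Eif2ak2, H2-D1, Tapbp and Psmb5 had log2 fold changes of -0.076, -0.056, -0.014, 0.081, 0.10 and 0.14, and with TMM Tapbp had 0.0031. With upper-quartile scaling Dtx3l, Trim25 and Ifitm2 had -0.020, -0.033 and -0.010. Leaving out 1 library gave -0.064 to 0.27 for Parp14, -0.068 to 0.071 for Dtx3l, -0.019 to 0.022 for Trim25, -0.045 to 0.18 for Ifitm2, -0.13 to 0.099 for H2-D1, -0.049 to 0.016 for Irf2, -0.15 to 0.028 for Irf7, -0.039 to 0.51 for Eif2ak2, -0.071 to 0.11 for Tapbp and -0.11 to 0.15 for Psmb5. The cause was not tested. Same-numbered libraries correlated in their deviations from the group means at 0.00174, 0.192 and 0.238, and differently numbered ones at -0.231 to 0.177. The values of 0.192 and 0.238 were the highest of all, which does not decide whether the numbers pair libraries. In the main test the numbers were not taken to pair them. With the replicate block 1179 genes (all genes higher in E531R) and 1062 genes (all genes lower in E531R) passed, with 5 and 5 members and 12 and 10 genes of the further list; the block ended 8 calls of the further list, those of Ifnar1, Traf3, Samhd1, Oas1c, Tor3a, Ly6e, Uba7 and Mr1, and no member's call. Scaling with TMM or upper quartile moved the median of all genes to 0.02 and -0.03. Genes of few reads, such as Isg15 and Mx1, are limited by depth.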
